A study of Sus scrofa with 10 samples.

Results

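The 9 genes described here code for proteases that cut the extracellular matrix of the ovary and for inhibitors of these proteases. They are the matrix metalloproteinases MMP2, MMP9 and MMP14, the tissue inhibitors TIMP1, TIMP2 and TIMP3, the secreted metalloproteinase ADAMTS1, and the plasminogen activators PLAT and PLAU. They were chosen by symbol from the protein-coding loci of the deposited table, with the locus of most counts taken where a symbol stood at several loci. All 9 were found among 19972 protein-coding loci, and all 9 were among the 15170 of them that reached a mean of 0.1 FPKM and were tested. FPKM, the fragments of a transcript scaled by its length and by the mapped fragments of the library, is a level per length, so it also allows levels to be compared between genes.

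Ovary RNA of 10 gilts born on the same day was sequenced with 1 library for each pig. From the age of 210 days all 10 were given 18 daily feeds of 20 mg of the progestin altrenogest, which delays heat, and then went 2 days without it. The 5 pigs of the rpFSH treatment group were then injected with 1000 IU of recombinant pig follicle-stimulating hormone, produced in CHO cells, and the 5 pigs of the control group with saline. The ovaries were collected at 234 days of age and frozen once the surface follicles had been taken off. Large follicles, in which these genes are best known, may therefore be few in this tissue. How much follicle tissue remained is not stated. Pigs are named below by group and number, such as control 2 or rpFSH 1.

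The wall of an ovulating follicle is opened by proteases that act on collagen, basement membrane and proteoglycans. MMP14 sits in the cell membrane and activates pro-MMP2, a gelatinase, with the help of TIMP2, whereas MMP9 is the other gelatinase. ADAMTS1 cuts the proteoglycan versican and is induced through the progesterone receptor in follicles after the LH surge. PLAT and PLAU turn plasminogen into plasmin, a protease of broad range. TIMP1 is also a known product of the corpus luteum, and TIMP3 is bound to the matrix and inhibits ADAMTS proteases as well as MMPs.

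The libraries held 64873797 to 75114003 counts, and 3 counts, the smallest number taken here as above 0, corresponded to 0.0399 to 0.0462 CPM. The ovarian genes FSHR, AMH, INHA and GDF9 had at least 514 counts in every pig, with AMH at a locus that carries more than 1 gene name. The granulosa markers found (FSHR, CYP19A1, AMH and INHA) summed to 3.41 FPKM in control 2, 7.39 in rpFSH 3 and up to 81.3 in rpFSH 2. The theca markers CYP17A1, INSL3 and LHCGR summed to 4.38 FPKM in rpFSH 3, 8.55 in control 2 and up to 226 in control 3. The luteal markers STAR and CYP11A1, which start steroid synthesis, stood apart in 3 pigs: STAR was at 532 FPKM in control 2, 448 in rpFSH 1 and 121 in rpFSH 4, against 1.52 to 5.67 in the other pigs. The markers of oviduct-type epithelium (FOXJ1, OVGP1, EPCAM and CDH1, 4 of 5 listed) summed to 38.0 FPKM in control 2 and 91.7 in control 5, against 2.82 to 4.27 in the other pigs. The OVGP1 locus also carries more than 1 gene name. Smooth muscle markers summed to 1789 FPKM in control 5 and to between 65.3 and 484 elsewhere. The edgeR test was also run without the pigs high in STAR (4 control and 3 rpFSH pigs left) and without those high in FOXJ1 (3 control and 5 rpFSH pigs left). In these bulk samples, fewer cells of a type and less RNA per cell cannot be told apart.

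None of the 9 genes passed the test between the groups, which was edgeR's quasi-likelihood test with a Benjamini-Hochberg adjusted p under 0.05 over all tested mRNAs. No tested mRNA did (0.0%), and the adjusted p of the 9 genes was between 0.992 and 1.00. DESeq2 and limma called none of the 9 either, although DESeq2 called 86 (0.579%) of the 14844 mRNAs to which it gave an adjusted p. At an unadjusted P under 0.05, edgeR counted 1 of the 9, ADAMTS1, where 4.76% of all tested mRNAs had such a P, 1.54% higher and 3.22% lower in the rpFSH group. DESeq2 counted 2 of the 9, ADAMTS1 and PLAU, where 6.18% of all mRNAs had such a P, and limma counted 1, where 3.03% did. The fitted log2 fold change was above 0 in 7 of the 9, with a median of 0.62, beside a median of -0.01 over all tested mRNAs. Over all 15170, it was above 0 in 7369 and below 0 in 7801. In all 9 genes the ranges of the groups overlapped, as they did in nearly all tested mRNAs. Of the 15170, 12 had every rpFSH pig above every control pig and 83 had every rpFSH pig below. Over all alternatives tried, the smallest adjusted p of any of the 9 was 0.188, for ADAMTS1 with DESeq2.

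**Figure D1:**
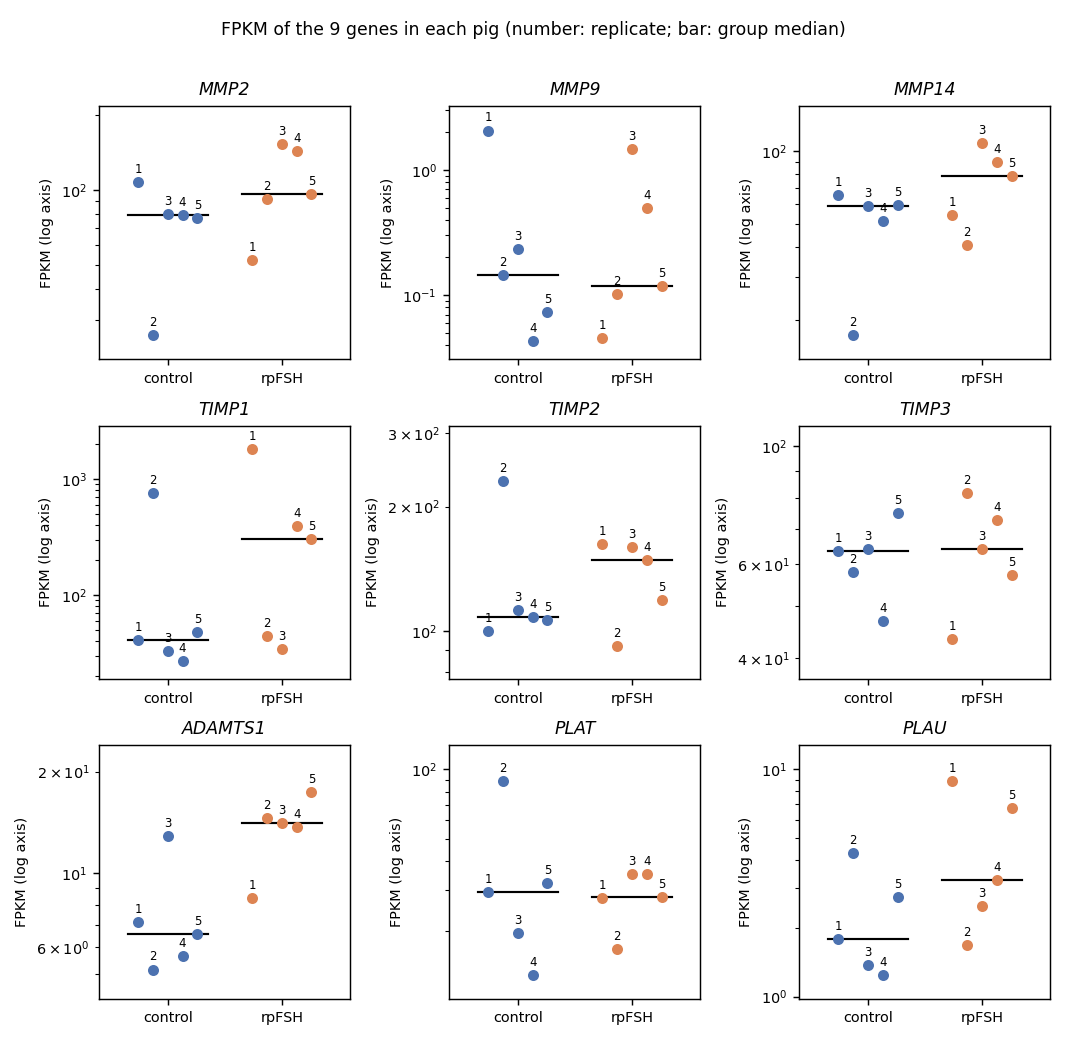
FPKM of the 9 genes (vertical log axes) in the 5 control pigs (blue) and the 5 rpFSH pigs (orange), with the replicate number beside each point and a black bar at the group median. ADAMTS1 was above the highest control pig in 4 of 5 rpFSH pigs, and TIMP1 was between 306 and 1795 FPKM in 4 pigs of both groups against 26.9 to 48.5 in the other 6.

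ADAMTS1 had the smallest P of the 9 genes and was higher in the rpFSH group by a fitted fold of 1.91. Its FPKM was 7.13, 5.15, 12.9, 5.64 and 6.55 in control 1 to 5, and 8.41, 14.6, 14.0, 13.7 and 17.3 in rpFSH 1 to 5. Every rpFSH pig was above the control median, and rpFSH 1 was the only one under control 3, the highest control pig. The mean was 7.47 ± 3.12 FPKM in the controls and 13.6 ± 3.24 in the rpFSH group (SD, n = 5 each). Its log2 fold change was 0.93 ± 0.29 (SE), with an unadjusted P of 0.00863 and an adjusted p of 0.992 by edgeR's quasi-likelihood test. The two-sided exact permutation test over all assignments of the pigs to the groups gave p = 0.0159, where 0.00794 is the smallest it can give. The unadjusted P stayed under 0.05 with each of the 10 pigs left out in turn. Without the pigs high in STAR, the log2 fold change was 1.02 (unadjusted P = 0.0111, edgeR). Without control 2 and control 5, the pigs high in FOXJ1, it was 0.74 (unadjusted P = 0.0509, edgeR).

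MMP2 and MMP14, the gelatinase and its membrane-bound activator, were higher on average in the rpFSH group, by less than their spread allowed the test to call. MMP2 was at 108, 26.1, 79.8, 79.0 and 77.1 FPKM in control 1 to 5, and at 52.4, 91.9, 154, 144 and 95.9 in rpFSH 1 to 5. MMP14 was at 65.4, 17.3, 59.0, 51.5 and 59.4 FPKM in control 1 to 5, and at 54.1, 40.9, 108, 90.2 and 78.8 in rpFSH 1 to 5. For both genes rpFSH 3 and rpFSH 4 were the highest pigs, and rpFSH 4 was also high in STAR. Control 2, the lowest pig for both, had the most STAR and was high in FOXJ1 as well. In the test, the log2 fold change was 0.62 ± 0.38 (SE, unadjusted P = 0.135, edgeR) for MMP2 and 0.63 ± 0.37 (unadjusted P = 0.116, edgeR) for MMP14. The exact permutation test gave p = 0.230 and p = 0.198. Without control 2, the log2 fold changes were 0.41 for MMP2 and 0.42 for MMP14. Without both pigs high in FOXJ1 they were 0.36 and 0.42.

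The levels of MMP2 and MMP14 followed each other from pig to pig. MMP2 was between 0.968 and 2.25 times as high as MMP14 within a pig, with a median of 1.47 in FPKM. Over the 10 pigs, Pearson's r of their log2 (FPKM + 1) was 0.91 and Spearman's rho 0.81, as a description of libraries that share depth and tissue makeup. Without the 2 pigs farthest from the MMP2 median, r was 0.59, so the strength of the relation rested in part on those pigs. MMP2 was compared with 11314 other mRNAs with a mean FPKM of at least 1. Only 9 had a higher r with MMP2 than MMP14 had, a count that includes MMP2 itself.

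MMP9, the other gelatinase, was the lowest of the 9 genes and its high pigs were in both groups. It was at 2.07, 0.146, 0.235, 0.0429 and 0.0734 FPKM in control 1 to 5, and at 0.0455, 0.102, 1.48, 0.500 and 0.119 in rpFSH 1 to 5. Control 1 and rpFSH 3 were the highest pigs, and the counts behind these values were between 20 and 853. The 5 markers found for neutrophils, which store MMP9 in granules, summed to 13.3 FPKM in control 2. In the other pigs, control 1 and rpFSH 3 among them, they summed to 0.168 to 0.591. The cells behind the MMP9 values were not tested. The MMP9 log2 fold change was -0.08 ± 1.19 (SE, unadjusted P = 0.945, edgeR), and it became 1.92 without control 1 (unadjusted P = 0.0944). With this spread between pigs, even a change of several-fold could go undetected, and the power for MMP9 was not computed. The MMP9 locus lies inside the span of a locus named TP53RK and SLC13A3 on the other strand, whose FPKM was 0.674 to 1.19, above the MMP9 median of 0.132. The sources used here do not state whether counting used the strand, so reads of these loci may not be separate.

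TIMP1 had the widest range of the 9 genes, with 66.8 times between the lowest and the highest pig. It was at 41.3, 751, 32.8, 26.9 and 48.5 FPKM in control 1 to 5, and at 1795, 44.5, 34.0, 395 and 306 in rpFSH 1 to 5. The pigs fell into a high set of control 2, rpFSH 1, rpFSH 4 and rpFSH 5, and a low set of the other 6, so both groups held pigs of both kinds. In rpFSH 1, TIMP1 was the mRNA with the highest FPKM of all protein-coding loci, and it took 0.248% of all counts of that pig (95% Wilson interval, 0.247 to 0.250%, for counting error only). For TIMP1 the log2 fold change was 1.57 ± 1.26 (SE, unadjusted P = 0.240, edgeR), and the exact permutation test gave p = 0.333. Leaving out a single pig moved it widely: it was 3.83 without control 2 (unadjusted P = 0.00674, adjusted p = 0.908, edgeR) and 0.19 without rpFSH 1 (unadjusted P = 0.873).

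The luteal genes moved with TIMP1 in part. Of the 4 pigs high in TIMP1, 3 were the pigs high in STAR and CYP11A1, but rpFSH 5 had 306 FPKM of TIMP1 with 4.23 FPKM of STAR and 15.5 of CYP11A1, like the low pigs. The 4 luteal markers found (STAR, CYP11A1, PTGFR and OXT) summed to 10.9 to 2538 FPKM in the controls and to 23.4 to 1292 in the rpFSH group, and OXT had at most 9 counts in any pig. Without the 3 pigs high in STAR, the TIMP1 log2 fold change was 1.85 (unadjusted P = 0.0357, adjusted p = 0.996, edgeR), with rpFSH 5 as the only high pig left. The part of luteal cells in the TIMP1 values was not tested.

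**Figure D2:**
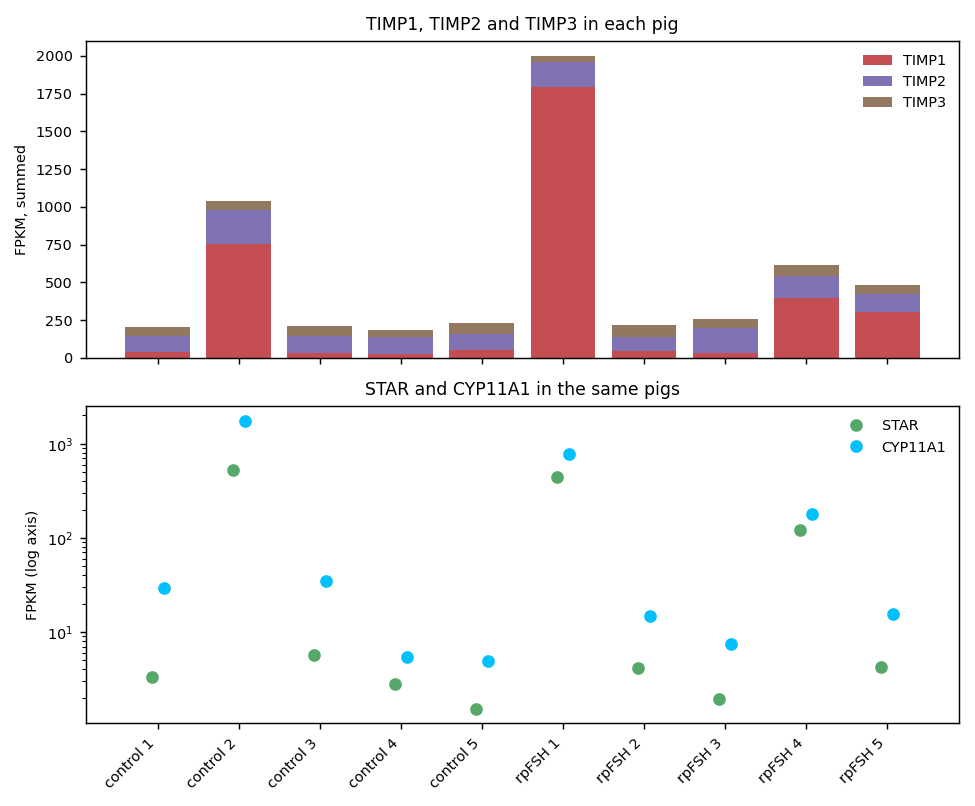
Top, FPKM of TIMP1 (red), TIMP2 (purple) and TIMP3 (brown) stacked for each pig, on an axis that starts at 0. Bottom, FPKM of STAR and CYP11A1 in the same pigs on a log axis. The summed TIMPs ran from 182 to 2001 FPKM, and TIMP1 accounted for most of the sum in control 2, rpFSH 1, rpFSH 4 and rpFSH 5.

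TIMP2, the inhibitor that also takes part in pro-MMP2 activation, was the most abundant of the 9 genes by its median of 116 FPKM. It was at 100.1, 230.4, 113, 108 and 106 FPKM in control 1 to 5, and at 162, 92.5, 160.2, 148 and 119 in rpFSH 1 to 5. Control 2 was the highest pig and the other 4 control pigs lay close together, below 4 of the 5 rpFSH pigs. The log2 fold change was 0.13 ± 0.26 (SE, unadjusted P = 0.644, edgeR) with all pigs and 0.43 ± 0.18 without control 2 (unadjusted P = 0.0396, adjusted p = 0.908).

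TIMP3, the matrix-bound inhibitor, was the steadiest of the 9 genes, with 1.88 times between the lowest and the highest pig. It was at 63.7, 57.9, 64.0, 46.9 and 74.9 FPKM in control 1 to 5, and at 43.3, 81.6, 64.1, 72.6 and 57.2 in rpFSH 1 to 5. Neither group stood above the other, and the log2 fold change was 0.13 ± 0.20 (SE, unadjusted P = 0.531, edgeR).

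The makeup of the TIMP pool differed widely between pigs of both groups. TIMP1 made up 20.1, 72.3, 15.7, 14.8 and 21.1% of the summed FPKM of the 3 TIMPs in control 1 to 5, and 89.7, 20.4, 13.2, 64.1 and 63.4% in rpFSH 1 to 5. In the 6 pigs low in TIMP1, TIMP2 was the most abundant TIMP.

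PLAU, the urokinase-type activator, had the lowest median of the 9 genes but for MMP9, and its mean was higher in the rpFSH group. It was at 1.79, 4.28, 1.37, 1.24 and 2.74 FPKM in control 1 to 5, and at 8.87, 1.69, 2.51, 3.25 and 6.75 in rpFSH 1 to 5. Of the rpFSH pigs, 4 were above the control median, and rpFSH 1 and rpFSH 5 were above all control pigs. For PLAU the log2 fold change was 1.08 ± 0.49 (SE, unadjusted P = 0.0512, edgeR), and the exact permutation test gave p = 0.159. This value lay near the threshold and crossed it with other settings: P was 0.0308 with DESeq2 and 0.0154 without control 2, but 0.159 without rpFSH 1 (edgeR). The 4 pigs highest in PLAU, namely rpFSH 1, rpFSH 5, control 2 and rpFSH 4, were the 4 pigs high in TIMP1.

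PLAT, the tissue-type activator, was more abundant than PLAU in every pig, by 3.11 to 20.7 times in FPKM. It was at 29.4, 88.5, 19.5, 12.9 and 32.3 FPKM in control 1 to 5, and at 27.6, 16.6, 35.3, 35.3 and 27.8 in rpFSH 1 to 5. Control 2 was again apart from the rest, and the rpFSH pigs lay within the control range. The log2 fold change was -0.28 ± 0.46 (SE, unadjusted P = 0.557, edgeR) and turned to 0.36 without control 2 (unadjusted P = 0.258). The ratio of PLAT to PLAU was 10.4 to 20.7 in the controls and 3.11 to 14.1 in the rpFSH group, with overlap.

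**Figure D3:**
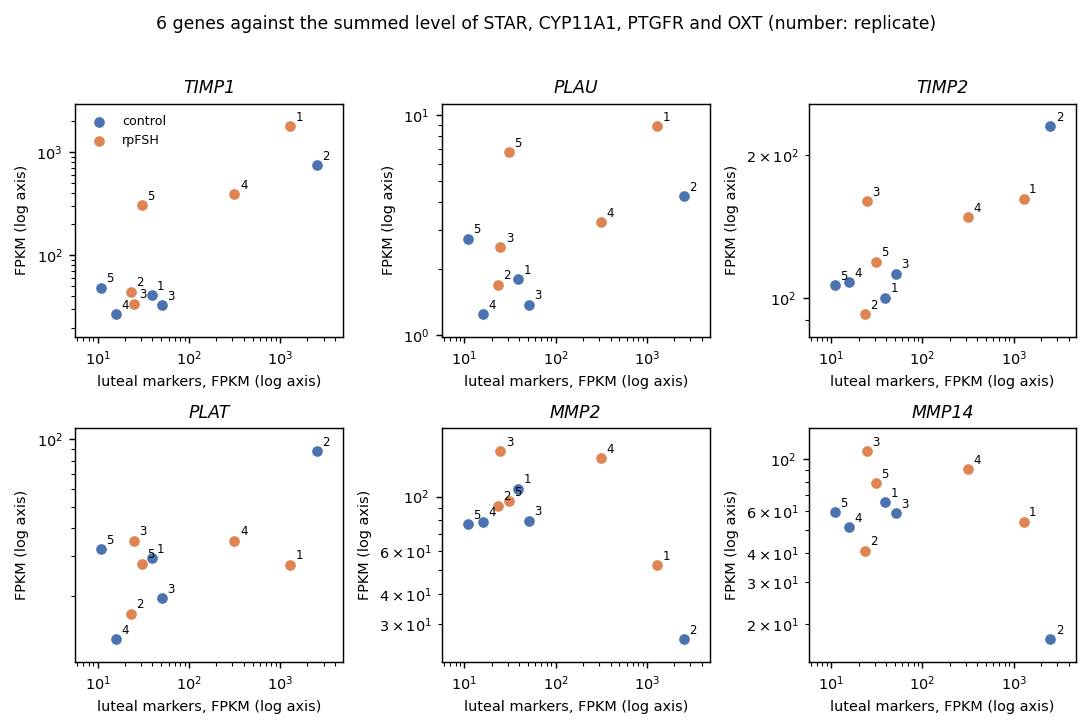
FPKM of TIMP1, PLAU, TIMP2, PLAT, MMP2 and MMP14 (vertical, log axes) against the summed FPKM of the luteal markers (horizontal, log axes), with 1 point per pig, control in blue and rpFSH in orange. Control 2, at 2538 FPKM of luteal markers, was the highest pig for TIMP2 and PLAT and the lowest for MMP2 and MMP14. At 317 FPKM, rpFSH 4 was among the highest pigs for MMP2 and MMP14. In turn, rpFSH 5, at 30.7 FPKM, shared the high TIMP1 and PLAU of the pigs at the right.

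Ordered by the median FPKM of the 10 pigs, TIMP2 (116) was followed by MMP2 (85.8), TIMP3 (63.8), MMP14 (59.2), TIMP1 (46.5), PLAT (28.6), ADAMTS1 (10.6), PLAU (2.62) and MMP9 (0.132). PLAT exceeded ADAMTS1 in 10 of 10 pigs, and most other neighbours kept their order in 9 of 10. The order was unsettled around MMP14, since TIMP3 exceeded it in 4 pigs and it exceeded TIMP1 in 5. The ranges over pigs of all neighbours in this order overlapped.

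Ratios of protease to inhibitor within a pig are given with no test. The ADAMTS1 to TIMP3 ratio in FPKM had a median of 0.112 in the control group (0.0874 to 0.201) and 0.194 in the rpFSH group (0.178 to 0.303). All 5 rpFSH pigs were above all control pigs but control 3. The MMP2 to TIMP2 ratio had a median of 0.725 in the control group (0.113 to 1.07) and 0.959 in the rpFSH group (0.323 to 0.993). In both groups the lowest pig was the one with the most STAR, control 2 and rpFSH 1. The other pig high in STAR, rpFSH 4, was at 0.968. The MMP14 to TIMP2 ratio had medians of 0.524 and 0.608. The MMP9 to TIMP1 ratio had medians of 0.00160 and 0.00127, from the lowest gene of the set and the most variable one. All 4 ratios overlapped between the groups.

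**Figure D4:**
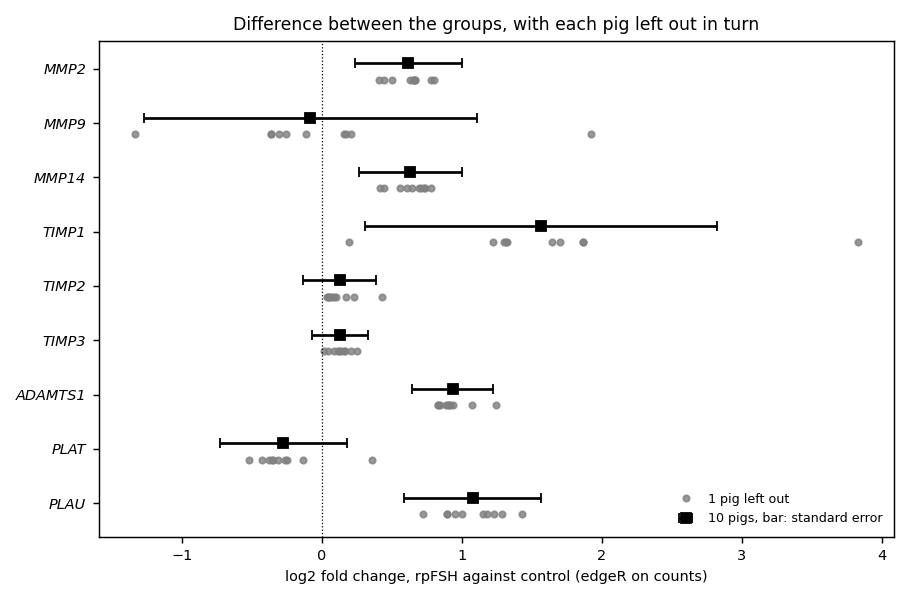
Log2 fold change of each of the 9 genes, rpFSH against control, by edgeR on the counts (squares, with bars of 1 standard error) and with each pig left out in turn (grey points). ADAMTS1 stayed between 0.83 and 1.25, whereas TIMP1 ran from 0.19 to 3.83 and MMP9 from -1.34 to 1.92.

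Of 108 further genes named in 7 lists of proteases, inhibitors, matrix substrates and ovulatory signals, 101 were found and 90 tested. None had an adjusted p under 0.05 by edgeR, DESeq2 called 1 (RUNX1, adjusted p = 0.0161) and limma none. At an unadjusted P under 0.05, edgeR counted 7 of the 90 higher and 1 lower in the rpFSH group, where 1.54% and 3.22% of all tested mRNAs were. The median log2 fold change of the 90 was 0.15, with 60 above 0 and 30 below. Of all 15170 tested mRNAs, 7369 were above 0 and 7801 below.

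Among the ovulatory signal genes, RUNX1 and FOSL2, transcription factors induced in follicles by LH, had a higher mean in the rpFSH group. RUNX1 was at 3.79, 2.56, 2.23, 2.86 and 2.14 FPKM in control 1 to 5, and at 4.73, 3.59, 4.48, 4.13 and 5.35 in rpFSH 1 to 5. Its log2 fold change was 0.79 ± 0.17 (SE, unadjusted P = 0.000927, adjusted p = 0.992, edgeR). Only rpFSH 2 was below the highest control pig. FOSL2 had a log2 fold change of 1.02 ± 0.34 (unadjusted P = 0.0126, edgeR), which was 0.63 without the pigs high in STAR (unadjusted P = 0.0649). The other 14 tested genes of this list had a P above 0.05, among them the most abundant, EGR1, at 21.3 FPKM on average. PGR, the progesterone receptor, had a log2 fold change of -0.41 ± 0.56 (unadjusted P = 0.474, edgeR), and VCAN, which codes for versican, had 0.32 ± 0.69 (unadjusted P = 0.654). These last 2 genes were picked for their tie to ADAMTS1, outside the rule for naming genes.

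In the 12 tested further MMPs, none had a P under 0.05. The most abundant was MMP11, at 7.39 FPKM on average, far below MMP2 and MMP14. In the list of other inhibitors and regulators, 1 of 8 did: LRP1, a receptor that clears proteases bound to their inhibitors, had a mean of 79.8 ± 14.2 FPKM in the controls and 103 ± 5.90 in the rpFSH group (log2 fold change 0.44 ± 0.15 (SE), unadjusted P = 0.0169, edgeR). THBS1, a matrix glycoprotein and the most abundant of this list at 168 FPKM, had a log2 fold change of 0.84 ± 0.43 (unadjusted P = 0.0747).

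Of the 21 further ADAMTS and ADAM proteases, ADAMTS9, which like ADAMTS1 cuts versican, was the only one with a P under 0.05. It was above the highest control pig in 4 of 5 rpFSH pigs, with a log2 fold change of 0.60 ± 0.23 (SE, unadjusted P = 0.0237, edgeR). The most abundant of this list was ADAM10, at 12.8 FPKM. Of the 9 tested plasminogen system genes, PLAUR, the receptor that holds PLAU at the cell surface, had a log2 fold change of 0.86 ± 0.35 (unadjusted P = 0.0322, edgeR), at 0.544 ± 0.255 FPKM in the controls and 0.944 ± 0.412 in the rpFSH group. ANXA2, a plasminogen-binding protein and the most abundant of that list at 56.4 FPKM, had a log2 fold change of 0.01 ± 0.39. PLG, the plasminogen gene itself, is listed at 0 counts in all pigs.

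Of the 7 cathepsins and cystatins, CTSS had a log2 fold change of 0.56 ± 0.23 (SE, unadjusted P = 0.0340, edgeR), at a locus that carries a second gene name. CTSB was the most abundant at 71.4 FPKM. Of the 17 matrix substrates, BGN and LUM, both small proteoglycans, had an unadjusted P under 0.05 with opposite signs. BGN had a log2 fold change of 0.75 ± 0.29 (unadjusted P = 0.0251, edgeR). LUM was at 6.38, 7.68, 3.57, 8.09 and 29.0 FPKM in control 1 to 5, and at 3.36, 6.19, 2.94, 3.14 and 2.07 in rpFSH 1 to 5, with a log2 fold change of -1.54 ± 0.53 (unadjusted P = 0.0153, edgeR). Without the pigs high in FOXJ1, which include control 5, the LUM value was -0.67 (unadjusted P = 0.102). COL3A1, at 527 FPKM the most abundant substrate, stands at a locus with a second name as well.

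**Figure D5:**
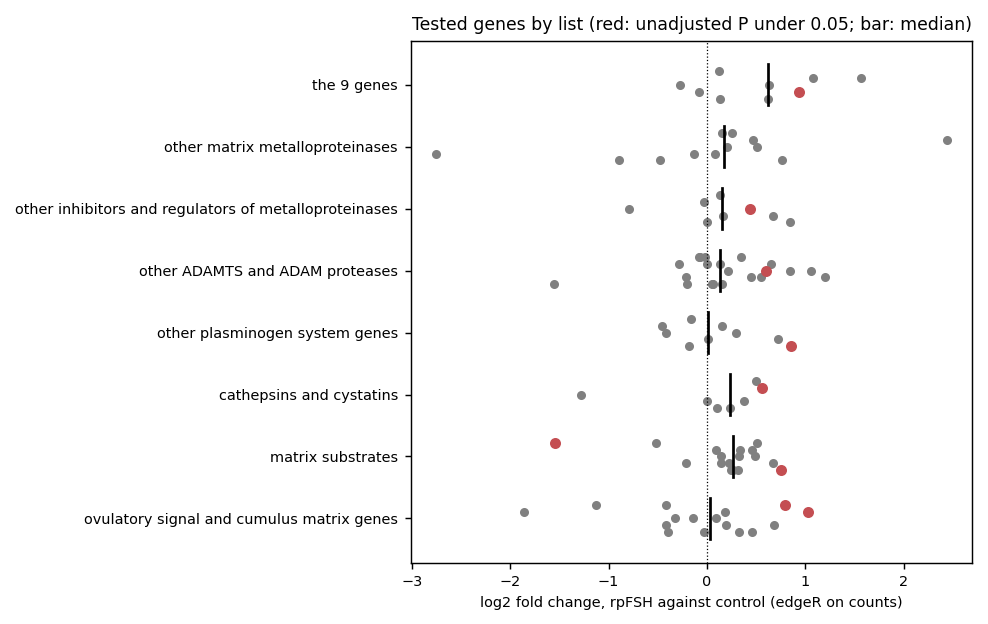
Log2 fold change, rpFSH against control (edgeR on the counts), of the 9 genes and of the tested genes of the 7 lists, with 1 point per gene and a black bar at the list's median. Red points mark an unadjusted P under 0.05, of which there were 1 among the 9 genes and 8 among the 90 list genes, and the list medians lay between 0.01 and 0.26.

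The mRNAs whose pattern over the 10 pigs was most like each gene are given as a description. For ADAMTS1 they were KCNJ2 (Pearson's r of log2 (FPKM + 1) of 0.90), the gene ENSSSCG00000032624 (0.86) and HTR2A (0.86). For MMP2 they were LBR (0.96), ATRNL1 (0.96) and AKAP12 (0.94), and for MMP14 they included LBR again (0.93) and FOXO3 (0.93). For TIMP1 they were GFPT2 (0.98), ITGA2 (0.96) and ENSSSCG00000036956 (0.96). TIMP2 was most like PTP4A3 (0.97), SCPEP1 (0.95) and PI4K2A (0.95), and TIMP3 most like ITGA8 (0.92), CD180 (0.88) and DOCK11 (0.85). PLAT was most like SEMA6B (0.96), EEPD1 (0.94) and CYTIP (0.94). PLAU was most like FAM167B (0.92), BRAP (0.92) and ENSSSCG00000027689 (0.91). For MMP9 they included ARID3A (0.88) and GGA2 (0.87), with Spearman's rho of 0.48 and 0.33.

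The loci lie on 8 chromosomes of Sscrofa11.1, with only MMP9 and PLAT on the same one. MMP2 spans 30058595 to 30087031 on chromosome 6, MMP14 spans 76174503 to 76186094 on chromosome 7, and MMP9 spans 48175056 to 48188264 on chromosome 17. ADAMTS1 spans 190273999 to 190286228 on chromosome 13, PLAT 11195589 to 11223944 on chromosome 17, and PLAU 76629177 to 76635894 on chromosome 14. The inhibitors are spread out: TIMP1 spans 42101572 to 42106415 on chromosome X, TIMP2 spans 3254494 to 3300831 on chromosome 12 and TIMP3 spans 12185819 to 12242604 on chromosome 5. TIMP1 lies within SYN1 on the other strand, at 0.456 to 1.35 FPKM far below TIMP1. Loci without an annotated type run on the other strand of TIMP2 (1.99 to 4.88 FPKM) and TIMP3 (4.30 to 7.81 FPKM). MMP14 lies within the span of SLC7A7 on the other strand (1.26 to 2.80 FPKM) and overlaps a locus named PRMT5 (1.43 to 5.93 FPKM), and an unnamed locus runs into PLAT on the other strand (0.683 to 5.58 FPKM). By RefSeq spans, TIMP3 also lies within SYN3, and PLAU lies within LOC102160869 and partly within CAMK2G. By the table's own GO terms, 7 of the 9 genes shared extracellular space and 7 proteolysis, and the 3 MMPs shared metalloendopeptidase activity with ADAMTS1.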

How the data were processed

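Ovary RNA-seq values of 5 control and 5 rpFSH pigs were used, with groups and pig numbers from the labels and 1 library per pig. The authors mapped the reads to Sscrofa11.1 and assembled and quantified them as FPKM per locus, with HISAT2 2.0, Bowtie 0.12.2 and StringTie 1.3.0 named in the submitters' processing notes. The deposited table also holds whole-number counts, whose counting method is not given in the sources used here. The methods describe rRNA removal and the labels poly(A) selection.

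Counts were tested with edgeR 4.0.16 (quasi-likelihood, TMM, two-sided) in R 4.3.3, in place of the authors' Ballgown test on FPKM, over the 15170 protein-coding loci that reached a mean of 0.1 FPKM, with Benjamini-Hochberg adjustment over all of them. The standard error is the log2 fold change divided by the square root of the F statistic. Alternatives were DESeq2 1.42.0, limma 3.58.1 on log2 (FPKM + 1) or (FPKM + 0.1), other size factors, no filter, a mean FPKM of at least 1, all loci together, the replicate number as a block, and each pig left out. The fits without the pigs high in STAR (100 FPKM or more) or in FOXJ1 (1 FPKM or more) were added after seeing the data. The exact permutation test used the difference of mean log2 (FPKM + 1). The steps were tested on simulated data.

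The 9 genes and the lists were chosen with earlier results of these data known. Named besides the 9 were list genes past the test, up to 10 list genes with the smallest unadjusted P under 0.05, the most abundant gene of each list, the 3 mRNAs most like each gene, ratio partners and overlapping loci. PGR and VCAN were added by hand. Some genes that this rule names, and the ratios that need them, are not reported here. Totals of 64873797 to 75114003 counts per pig set the precision, and 3 counts were taken as the floor. Sequences of the genes were not used here.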

Additional observations from a re-analysis of the deposited data

Results flagged for a closer look

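Single pigs stood apart from the rest of their group by Dixon's test in 11 of 26 groups examined (9 genes and 4 ratios in both groups). About 1.3 would be marked by chance if the values were normally distributed. The test took FPKM and ratios without a log, and skewed values give more marks. The 11 can therefore not be weighed against the 1.3. Control 2, which had the most STAR and was also high in FOXJ1, was apart in 4 genes. It was the highest control pig for TIMP1 (751 FPKM), TIMP2 (230.4) and PLAT (88.5), and the lowest for MMP14 (17.3). The TIMP1 level of 1795 FPKM in rpFSH 1 was apart from the other rpFSH pigs, as was the MMP2 to TIMP2 ratio of 0.323 in the same pig. Control 1 was apart in MMP9 (2.07 FPKM) and in the MMP9 to TIMP1 ratio (0.0502), and rpFSH 3 in the latter ratio as well (0.0435). Control 3 was apart in ADAMTS1 (12.9 FPKM) and in the ADAMTS1 to TIMP3 ratio (0.201), the only control pig within the rpFSH range of both. The 26 groups share pigs and genes, so these marks are not independent.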

How the results depend on the processing

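None of the 9 genes had an adjusted p under 0.05 in any setting tried. The number of the 9 with an unadjusted P under 0.05 was 1 with all pigs and 2 with upper-quartile normalization, DESeq2, no filter, the replicate block, and without the pigs high in STAR or in FOXJ1, and it ran from 1 to 4 with each pig left out, highest without control 2. Among the list genes that number was 8, against 5 with either limma fit and with the replicate block, 16 without the pigs high in FOXJ1, and 5 to 13 with each pig left out (13 without control 2). DESeq2 gave 1 list gene an adjusted p under 0.05. Of all 15170 tested mRNAs, 722 had an unadjusted P under 0.05 with edgeR, 711 with upper-quartile normalization, 460 with limma and 370 with the replicate block. Other settings tested other numbers of loci. DESeq2 gave 917 of 14844, a mean FPKM of at least 1 gave 375 of 11315, no filter 895 of 18204 and all loci 2102 of 36339. Without the pigs high in FOXJ1 there were 1035 of the 15170, and without those high in STAR 485. With each pig left out there were 560 to 798 (798 without control 2).

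The log2 fold change of MMP9 turned positive with limma at a pseudocount of 0.1 (0.091), with the replicate block (0.75), without the pigs high in STAR (0.045), and without control 1 (1.92), rpFSH 1 (0.21), rpFSH 2 (0.17) or rpFSH 5 (0.16), and over all pigs left out it ran from -1.34 to 1.92. MMP9 was not tested at a mean FPKM of at least 1, since it lies below. PLAT turned positive with the replicate block (0.044), without control 2 (0.36), without the pigs high in STAR (0.28) and without those high in FOXJ1 (0.55), and ran from -0.52 to 0.36 with each pig left out. The other 7 genes kept their direction in all settings. The cause of these turns was not tested. With the replicate block, MMP14 had a log2 fold change of 0.69 (unadjusted P = 0.0309, edgeR). Same-numbered pigs are different animals, and their deviations from the group means correlated at -0.413 to 0.111, with 0 of 5 control pigs most like their own number, so the numbers do not pair the pigs. PLAU passed an unadjusted P of 0.05 in 7 of 22 alternatives, at 383 to 2783 counts per pig.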
